A study of Mus musculus with 8 samples.

Results

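Transcripts of B cells and of MHC class II antigen presentation were examined in cultures of purified mouse T cells. The members were a list of 34 genes, matched by the platform's gene symbol, with the probe set of the highest mean over the 8 arrays kept where a gene had several. Of the 34, 30 were measured, among 19505 named genes in all. The other 4, Ighm, Ighd, Lyn and Cd74, were not matched to a probe set and were not analysed here. No member had more than 1 probe set. T cells came from spleens of 4 wild-type male C57BL/6 mice, isolated with a Pan T cell kit, and were activated on anti-CD3/CD28 beads. They were then cultured for 48 h with human beta-defensin-2 (hBD-2, an antimicrobial peptide of epithelia) or with phosphate-buffered saline (PBS), the vehicle, and 4 arrays were made for each group. The labels give the peptide in µL/mL (60), which leaves its mass concentration unknown. Arrays are numbered 1 to 4 in each group. The labels do not tie a number to a mouse, so p-values measure only the spread between these arrays.

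B cells make up a large part of the spleen, and a kit of this kind leaves T cells untouched by removing other cells with antibodies. B cell transcripts in the cultures were therefore taken as a view of B cells that may remain. The source of each transcript was not tested. A B cell senses antigen with surface immunoglobulin held together by CD79A and CD79B, which pass the signal to the kinases LYN, SYK and BTK and the adaptor BLNK. The cell's identity is set by transcription factors such as EBF1 and PAX5. B cells also take up antigen and show its peptides to CD4 T cells on MHC class II, a pair of an alpha and a beta chain, whose genes depend on the coactivator CIITA. Dendritic cells and macrophages carry class II as well, whereas mouse T cells are not usually counted among its producers.

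Values are deposited RMA log2 values (robust multi-array average, a normalized signal in which 1 unit is a doubling), and differences are hBD-2 minus PBS. T cell transcripts were strong. The 11 T cell markers had a mean log2 value of 10.27 to 10.35 on the hBD-2 arrays and of 10.24 to 10.33 on the PBS arrays, and Cd3e, a chain of the T cell receptor complex, was at 11.5 ± 0.0356 with hBD-2 and 11.5 ± 0.0329 with PBS (SD, n = 4). None of the 11 passed the limma test, but the groups did not overlap in 3 of them, against 14.9% of all genes. These were Bcl11b (8.98 ± 0.200 with hBD-2 and 8.59 ± 0.106 with PBS), Cd8a (10.8 ± 0.0417 with hBD-2 and 10.7 ± 0.0410 with PBS) and Cd28 (10.5 ± 0.0764 with hBD-2 and 10.7 ± 0.0440 with PBS). The spread of values on an array was narrower with hBD-2, with an interquartile range of 3.45 to 3.64 log2 units, against 3.64 to 3.76 with PBS, and it was narrowest on hBD-2 arrays 3 and 4 (3.45 each). That gap ran alongside the comparison of the groups for every member, and its part in the results was not tested. The lower quartiles of the arrays lay between 3.62 and 3.78, and low values there are compressed towards a floor.

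B cell transcripts were present in both groups, and their level went with the replicate number of the array more than with the peptide. In the hBD-2 group the arrays numbered 2 and 4 held the 2 highest values for 26 of 30 members, and in the PBS group for 19 of 30. In 18 of 30 members (60.0%) the 2 highest numbers were the same in both groups, and in all 18 they were 2 and 4. Over all 19505 genes the 2 highest numbers coincided in 20.0%, and they were 2 and 4 in both groups in 2.54%. Numbers 2 and 4 were singled out after the values were seen. The members are not independent of one another, because transcripts of 1 cell type share their source. In RNA from a mixed culture, fewer cells of a type and less RNA per cell cannot be told apart.

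**Figure D1:**
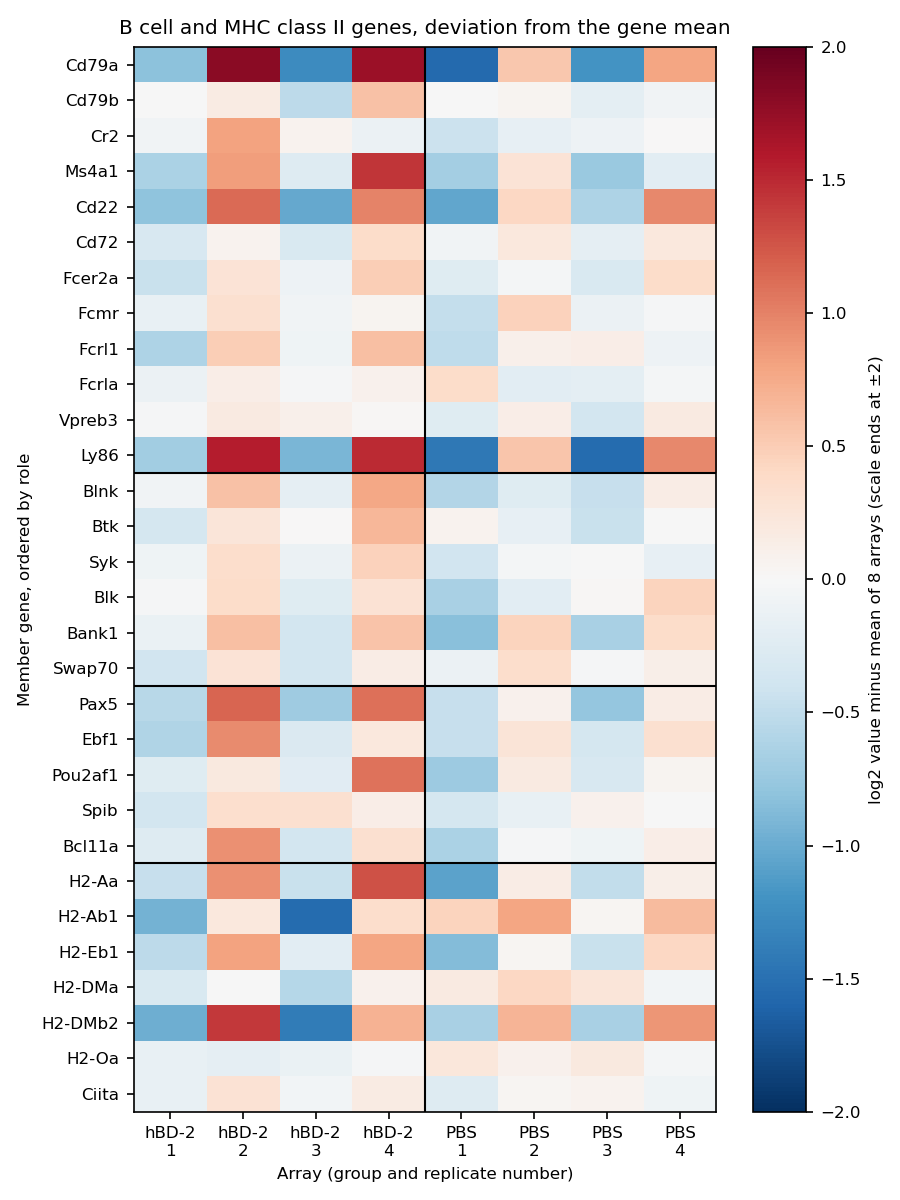
Log2 value of each of the 30 measured members minus that gene's mean over the 8 arrays, with hBD-2 arrays 1 to 4 left and PBS arrays 1 to 4 right and lines between the roles (receptor and surface, signalling, transcription factor, MHC class II). Columns 2 and 4 are red in both groups for Cd79a, Ly86 and Cd22, whereas H2-Oa is nearly flat.

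A split of each gene's sum of squares over the 8 arrays into treatment, number and remainder gave the same picture. The number held a median of 68.9% of the sum of squares over the 30 members (6.31% to 94.3%), against a median of 36.3% over all 19505 genes. It held more than 50% in 23 of 30 members (76.7%), against 31.2% of all genes. The treatment held a median of 12.0% for the members and 19.1% for all genes. With 4 numbers and 2 treatments the number has more degrees of freedom, so its share is high for any gene and is read against that of all genes.

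**Figure D2:**
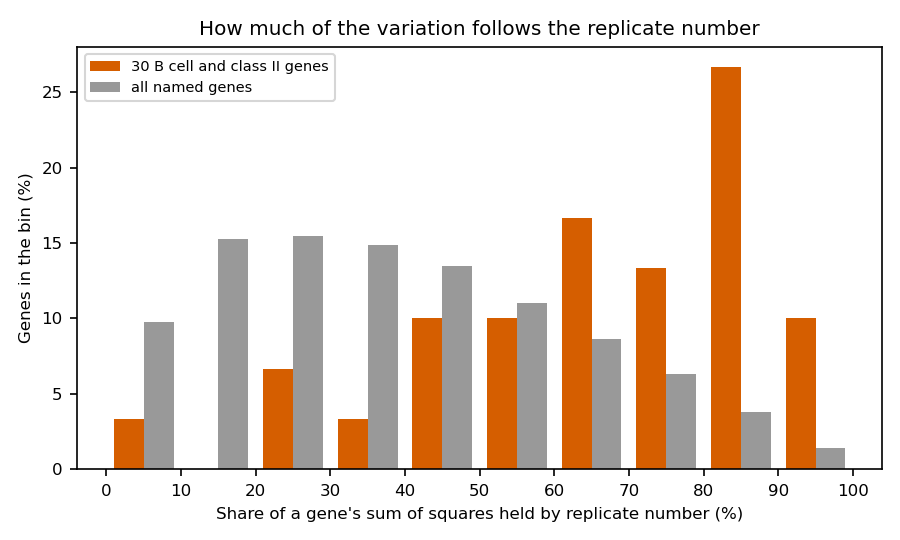
Share of a gene's sum of squares over the 8 arrays that goes with the replicate number, in bins of 10 percentage points, for the 30 members (orange, left bar of each pair) and all 19505 genes (grey, right bar). The members' median was 68.9% and that of all genes 36.3%.

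None of the 30 members passed the test between hBD-2 and PBS in the fit without a replicate block (limma, Benjamini-Hochberg adjusted p over all 19505 genes, threshold 0.05), whose lowest adjusted p among them was 0.149, for H2-Ab1. Over all genes 4.46% passed, 0.800% higher and 3.66% lower with hBD-2. After a repeated quantile normalization the split of the called genes was 227 higher and 521 lower, against 156 and 713. At an unadjusted p under 0.05 without the block there were 4 members, Blnk, H2-Ab1, H2-DMa and H2-Oa, which is 13.3% of the members against 22.3% of all genes. With the number as a block, 13 of the 30 members had an unadjusted p under 0.05 (limma). The share of all genes at that p with the block was not worked out here. In that fit 3 members and 857 of 19505 genes passed the adjusted threshold. The groups overlapped in all 30 members, while they did not overlap in 14.9% of all genes. The mean was higher with hBD-2 in 24 members and lower in 6, and 53.9% of all genes had a log2 fold change above 0. The median log2 fold change of the members was 0.19, against 0.02 for all genes. It was 0.17 without hBD-2 arrays 3 and 4, whereas it was 0.37 without hBD-2 array 1, 0.31 without hBD-2 array 3, 0.08 without hBD-2 array 2, 0.11 without hBD-2 array 4 and 0.12 without PBS array 1. Missing the threshold does not show that a member was equal in the groups, since the 95% intervals of several were wide.

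**Figure D3:**
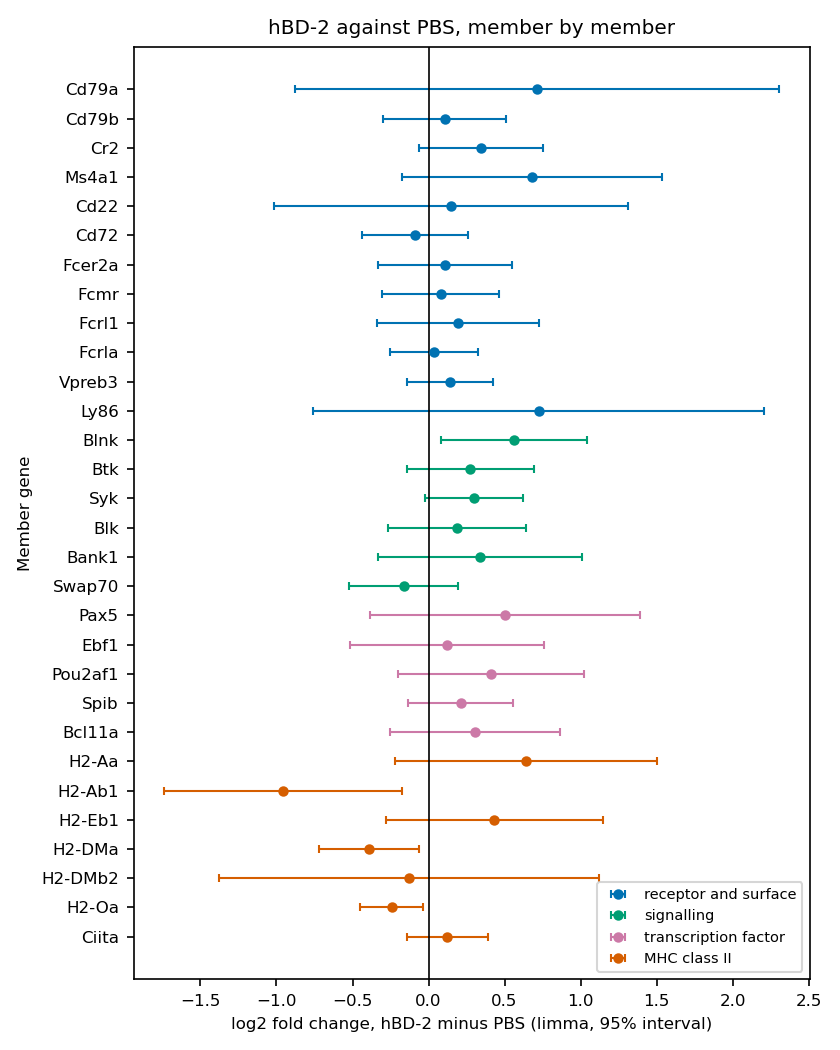
Log2 fold change, hBD-2 minus PBS, of the 30 measured members with limma's 95% interval from the fit without a replicate block, coloured by role. Intervals are widest for Cd79a (-0.88 to 2.30) and Ly86 (-0.76 to 2.20), and H2-Ab1 lies farthest below 0, at -0.96.

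Among the antigen receptor and other surface molecules, 7 of 12 members had 2 and 4 as the highest numbers in both groups. Cd79a, the alpha chain of the signalling pair of the B cell receptor, had 5.23, 7.86, 4.80 and 7.76 on hBD-2 arrays 1 to 4, against 4.50, 6.60, 4.85 and 6.84 on PBS arrays 1 to 4. Arrays 2 and 4 were high and arrays 1 and 3 low in both groups, which overlapped. The number held 88.7% of the sum of squares of Cd79a and the treatment 7.74%. Without a replicate block its log2 fold change was 0.71, with an SE of 0.727 and a 95% interval of -0.88 to 2.30 (limma adjusted p = 0.606). With the number as a block the SE of Cd79a was 0.188 and the interval 0.29 to 1.14 (limma adjusted p = 0.0691).

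Ly86 encodes MD-1, the partner of the receptor CD180 on B cells. It had 3.98, 6.24, 3.76 and 6.16 on hBD-2 arrays 1 to 4, against 3.25, 5.22, 3.14 and 5.64 on PBS arrays 1 to 4. Each hBD-2 array lay above the PBS array of its number, by 0.73, 1.02, 0.62 and 0.52, while the groups as a whole overlapped. Without a replicate block the log2 fold change was 0.72 (SE 0.678, limma adjusted p = 0.571), and the number held 90.4% of the sum of squares. With the number as a block the SE of Ly86 was 0.108 and its limma adjusted p 0.0115. Among the members, 7 were higher with hBD-2 in all 4 numbers (23.3%, against 14.4% of all genes) and 1, H2-Ab1, was lower in all 4 (3.33%, against 17.3%).

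Ms4a1, the gene of the B cell surface protein CD20, had 3.67, 5.13, 4.03 and 5.73 on hBD-2 arrays 1 to 4, against 3.61, 4.58, 3.55 and 4.08 on PBS arrays 1 to 4. The hBD-2 arrays 2 and 4 stood highest and the groups overlapped (log2 fold change 0.68, SE 0.391, limma adjusted p = 0.331). Cr2, which encodes the complement receptors CD21 and CD35, had 3.51, 4.40, 3.66 and 3.47 with hBD-2, against 3.16, 3.42, 3.49 and 3.59 with PBS. Of these 8 values for Cr2, that of hBD-2 array 2 was the one above 3.78, the highest lower quartile of the arrays.

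The other receptor and surface members had log2 fold changes between -0.09 (Cd72) and 0.19 (Fcrl1). Cd22, an inhibitory coreceptor, spanned 3.92 to 6.08 with hBD-2 and 3.90 to 5.91 with PBS, and the number held 94.3% of its sum of squares, the highest share of any member. Cd79b, the partner of Cd79a in the receptor, spanned 5.71 to 6.81 with hBD-2 but 6.04 to 6.29 with PBS. Its 2 highest numbers were 2 and 4 with hBD-2 and 1 and 2 with PBS, so Cd79b did not repeat the order of Cd79a among PBS arrays. Cd72, another inhibitory receptor, Fcer2a, the low-affinity IgE receptor CD23, and Fcmr, the IgM Fc receptor, all had 2 and 4 as their highest numbers in both groups. Their ranges with hBD-2 were 0.69, 0.95 and 0.46 log2 units, against 0.40, 0.67 and 0.94 with PBS. Fcrl1 and Fcrla, which belong to the Fc receptor-like genes, and Vpreb3, a gene related to the surrogate light chain, did not share their 2 highest numbers between groups.

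**Figure D4:**
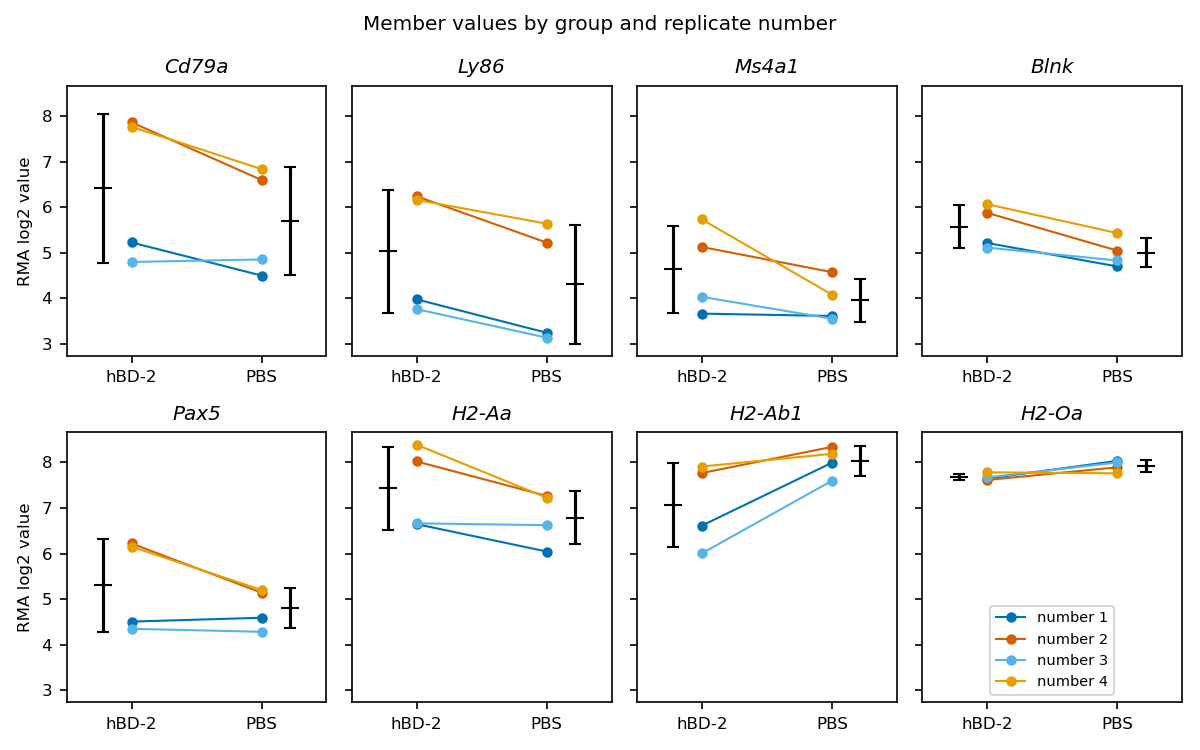
RMA log2 values of 8 members, with hBD-2 left and PBS right in each panel. Points are arrays, lines join arrays of the same replicate number, and black bars give mean ± SD (n = 4). For Cd79a and Ly86 the lines of numbers 2 and 4 lie far above those of 1 and 3, and for H2-Ab1 every line is lower at hBD-2.

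Of the 6 signalling members downstream of the receptor, 3 had 2 and 4 highest in both groups. Blnk, the adaptor that links SYK to BTK and phospholipase C, had 5.22, 5.88, 5.11 and 6.07 on hBD-2 arrays 1 to 4, against 4.70, 5.05, 4.83 and 5.43 on PBS arrays 1 to 4. All 4 same-numbered differences of Blnk were positive, from 0.28 to 0.83, and the groups overlapped. Its log2 fold change was 0.56, with a 95% interval of 0.08 to 1.04 that takes no account of the other genes tested (SE 0.220, limma adjusted p = 0.161). With the number as a block the SE of Blnk was 0.110 and its limma adjusted p 0.0300. Bank1, a scaffold protein of B cell receptor signalling, had 5.39, 6.13, 5.17 and 6.09 with hBD-2, against 4.69, 5.97, 4.88 and 5.90 with PBS, and the number held 86.1% of its sum of squares.

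Syk, a kinase that other blood cells use as well, was at 6.45 ± 0.297 with hBD-2 and 6.16 ± 0.176 with PBS (SD, n = 4; log2 fold change 0.30, limma adjusted p = 0.260). Btk, the kinase mutated in X-linked agammaglobulinaemia, lay near the floor, at 3.09, 3.68, 3.44 and 4.10 with hBD-2 and 3.51, 3.28, 2.99 and 3.43 with PBS. Its highest numbers in the PBS group were 1 and 4, unlike those of the hBD-2 group. Blk, a B lymphoid kinase of the SRC family, had a log2 fold change of 0.19, and Swap70, which acts in B cell migration and class switching, one of -0.16.

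Of 5 transcription factors of the B lineage, 4 had 2 and 4 highest in both groups. Pax5, which maintains B cell identity, had 4.51, 6.22, 4.35 and 6.15 on hBD-2 arrays 1 to 4, against 4.60, 5.14, 4.29 and 5.20 on PBS arrays 1 to 4. The hBD-2 values of numbers 2 and 4 exceeded the PBS values by 1.08 and 0.95, while those of numbers 1 and 3 differed by -0.08 and 0.07. Over the group the log2 fold change of Pax5 was 0.50 (SE 0.406, limma adjusted p = 0.504).

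Pou2af1, the coactivator OBF-1 that binds the octamer factors, had 6.16, 6.59, 6.17 and 7.48 with hBD-2, against 5.67, 6.57, 6.07 and 6.45 with PBS (log2 fold change 0.41, limma adjusted p = 0.416). Bcl11a, a zinc finger protein needed for early B cells, had 4.36, 5.53, 4.26 and 4.95 with hBD-2, against 3.99, 4.60, 4.53 and 4.76 with PBS. Ebf1, a pioneer factor of the lineage, had a log2 fold change of 0.12, and the number held 86.4% of its sum of squares. Spib, an ETS factor of B cells and plasmacytoid dendritic cells, was the transcription factor here whose highest numbers were not 2 and 4 in either group (2 and 3 with hBD-2, 3 and 4 with PBS). Its values were 3.85, 4.54, 4.54 and 4.34 with hBD-2 and 3.85, 4.07, 4.29 and 4.21 with PBS.

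Within numbers 2 and 4 the hBD-2 array was above the PBS array for 24 of 30 members each, with median differences of 0.40 and 0.17 log2 units. In numbers 1 and 3 it was above for 17 and 16 of 30, with median differences of 0.08 and 0.05. Of all genes, between 49.0% and 52.0% were higher with hBD-2 in each number. The members' spread inside a group was also wider with hBD-2, with a median range of 0.99 log2 units, against 0.74 with PBS. For all genes the median ranges were 0.37 and 0.32.

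Of 7 MHC class II members, 4 had 2 and 4 highest in both groups, and 3 had a higher and 4 a lower mean with hBD-2. H2-Aa, the alpha chain of the class II molecule I-A, had 6.65, 8.02, 6.67 and 8.39 on hBD-2 arrays 1 to 4, against 6.05, 7.27, 6.62 and 7.23 on PBS arrays 1 to 4. Numbers 2 and 4 were high in both groups, and each hBD-2 array was above its PBS counterpart (log2 fold change 0.64, SE 0.394, limma adjusted p = 0.364). With the number as a block the SE of H2-Aa was 0.163 and its limma adjusted p 0.0642. H2-Eb1, the beta chain of the class II molecule I-E, had 5.63, 6.97, 5.95 and 6.94 with hBD-2, against 5.29, 6.19, 5.71 and 6.57 with PBS (log2 fold change 0.43, limma adjusted p = 0.471). With the number as a block the limma adjusted p of H2-Eb1 was 0.0663.

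H2-Ab1, the beta chain that pairs with H2-Aa, had 6.62, 7.77, 6.01 and 7.91 on hBD-2 arrays 1 to 4, against 7.99, 8.34, 7.60 and 8.19 on PBS arrays 1 to 4. Its 2 highest numbers were again 2 and 4 in both groups, but every hBD-2 array was lower than the PBS array of its number, by values from -1.59 to -0.28. The log2 fold change was -0.96, with an SE of 0.358 and a 95% interval of -1.74 to -0.17 (limma adjusted p = 0.149), and the groups overlapped. With the number as a block the limma adjusted p of H2-Ab1 was 0.0414. The mean of H2-Ab1 was thus lower with hBD-2 while that of H2-Aa was higher. The within-array log2 difference H2-Ab1 minus H2-Aa was -0.35 ± 0.271 with hBD-2 and 1.24 ± 0.474 with PBS (SD, n = 4), which is a difference of -1.59. For H2-Ab1 minus H2-Eb1 the values were 0.70 ± 0.440 with hBD-2 and 2.09 ± 0.461 with PBS (SD, n = 4), a difference of -1.39. Both contrasts were picked because the chains were seen to go opposite ways, so they are descriptions with no test. Such a difference has no meaning as a level, since probe sets differ in brightness.

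H2-DMa, the alpha chain of the chaperone H2-M that loads peptides, had 6.94, 7.23, 6.67 and 7.32 with hBD-2, against 7.41, 7.66, 7.48 and 7.18 with PBS (log2 fold change -0.39, SE 0.150, limma adjusted p = 0.155). H2-DMb2, a beta chain of H2-M, followed the numbers more closely, with 5.01, 7.40, 4.59 and 6.68 with hBD-2 against 5.33, 6.66, 5.34 and 6.87 with PBS. The number held 91.7% of its sum of squares and 20.5% of that of H2-DMa. H2-DMb2 has a close copy, H2-DMb1, and probes of the pair may share signal. H2-Oa, the alpha chain of H2-O, which restrains H2-M, lay between 7.62 and 7.78 with hBD-2 and between 7.76 and 8.03 with PBS. The number held 6.31% of its sum of squares, the lowest share of any member (log2 fold change -0.24, SE 0.0945, limma adjusted p = 0.160). Ciita, the coactivator of class II genes, was at 4.76 ± 0.205 with hBD-2 and 4.63 ± 0.150 with PBS (SD, n = 4; log2 fold change 0.12, limma adjusted p = 0.591).

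The promoters of class II genes are known for an X box, bound by the RFX complex, and a Y box, bound by NF-Y, on which CIITA is recruited. The stretches below are shown because genes that carry these letters differed in how far they followed the replicate number. They run from 150 bases to 1 base before the start site, 5′ to 3′ on the gene's strand, from RefSeq on GRCm38.p6, and capitals mark the letters CTGATTGG (Y box) and GCAAC (a stretch within the X box). H2-DMb2 has neither there, and its capitals mark ATTGG, the part of the Y box that NF-Y reads. The places are chr17:34287824-34287973 on the minus strand for H2-Aa, and chr17:34305717-34305866, chr17:34092229-34092378 and chr17:34145099-34145248 on the plus strand for H2-Eb1, H2-Oa and H2-DMb2.
H2-Aa: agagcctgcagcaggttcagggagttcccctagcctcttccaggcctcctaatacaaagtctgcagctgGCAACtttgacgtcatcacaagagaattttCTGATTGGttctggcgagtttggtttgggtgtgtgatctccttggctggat
H2-Eb1: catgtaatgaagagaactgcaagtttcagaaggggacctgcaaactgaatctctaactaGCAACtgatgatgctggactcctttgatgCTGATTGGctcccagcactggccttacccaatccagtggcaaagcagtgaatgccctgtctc
H2-Oa: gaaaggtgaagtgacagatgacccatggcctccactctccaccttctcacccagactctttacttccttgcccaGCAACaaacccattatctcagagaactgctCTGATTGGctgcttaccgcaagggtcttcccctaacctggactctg
H2-DMb2: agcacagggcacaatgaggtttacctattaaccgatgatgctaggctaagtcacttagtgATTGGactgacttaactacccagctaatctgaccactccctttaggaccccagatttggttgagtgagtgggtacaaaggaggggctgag

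Promoter windows, from 250 bases before to 50 after a start, were matched for 25 of the 34 members, with 30 windows, and motifs were read on both strands. The 9 members not matched include H2-Ab1. CTGATTGG stood in 3 of 6 windows of class II members and in 4 of 30 windows of all matched members. The share over the 32851 windows in the table was 4.10%. GCAAC stood in 4 of 6 class II windows and in 35.2% of all windows, and ATTGG, which lies within CTGATTGG, in 5 of 6 and in 37.4%. H2-Aa, H2-Eb1 and H2-Oa share CTGATTGG and GCAAC, and the number held 73.4%, 83.1% and 6.31% of their sums of squares. A match is a description of the sequence and not evidence of binding.

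The octamer, ATTTGCAT, is the site of the OCT factors that the product of Pou2af1 assists in B cells. It stood in 2 of 30 windows of matched members, those of Blnk and Vpreb3, against 1.74% of all windows. The letters CCCNNGGG, the core of the EBF1 site, stood in 4 of 30 windows of matched members and in 13.7% of all windows. The octamer stretches are at chr19:40994222-40994371 on the minus strand for Blnk and chr10:75948150-75948299 on the plus strand for Vpreb3, with the octamer in capitals.
Blnk: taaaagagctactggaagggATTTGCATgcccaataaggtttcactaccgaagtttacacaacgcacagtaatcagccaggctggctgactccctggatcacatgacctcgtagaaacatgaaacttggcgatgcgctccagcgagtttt
Vpreb3: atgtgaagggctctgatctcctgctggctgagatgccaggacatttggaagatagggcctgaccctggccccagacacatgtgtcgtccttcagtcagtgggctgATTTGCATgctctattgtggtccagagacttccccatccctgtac
Blnk and Vpreb3 differed in their values, with ranges of 0.95 and 0.21 log2 units with hBD-2 against 0.73 and 0.54 with PBS.

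Further B cell genes outside the list were matched for 23 of 26 entries, and 8 of the 23 had 2 and 4 as the 2 highest numbers in both groups. Cd180, the receptor that Ly86 accompanies, had 4.24, 6.06, 3.79 and 5.64 on hBD-2 arrays 1 to 4, against 3.65, 4.60, 4.33 and 4.72 on PBS arrays 1 to 4. Tnfrsf13c, the receptor for the survival factor BAFF, had 6.46, 8.24, 6.38 and 7.99 with hBD-2, against 6.83, 7.64, 6.79 and 7.48 with PBS. The remaining 6 were Cd40, Cd24a, Cd83, Mef2c, Napsa and Rasgrp3. These 8 genes were picked out by their order of arrays. Cd40, the receptor for T cell help, was at 5.73 ± 0.225 with hBD-2 and 5.22 ± 0.493 with PBS (SD, n = 4; limma adjusted p = 0.184). Cd37, a tetraspanin of lymphocytes, lay between 10.7 and 11.0 with hBD-2 and between 10.8 and 10.9 with PBS. In the fit without a replicate block, 1 of the 23 genes fell and 22 did not pass the test, while 4.46% of all genes passed, 3.66% lower. The falling gene was Pik3ap1, an adaptor of PI3K signalling also known as BCAP, at 6.58 ± 0.259 with hBD-2 and 7.92 ± 0.186 with PBS (SD, n = 4; log2 fold change -1.34, limma adjusted p = 0.000632). For Pik3ap1 the number held 5.89% of the sum of squares. The groups did not overlap in 4 of the 23 genes (Cxcr5, Irf8, Cd55 and Pik3ap1), against 14.9% of all genes. With the number as a block Cd83 and Cd55 passed as well, both higher (limma adjusted p = 0.0486 and 0.0460).

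Other genes of the class II pathway did not pass the test in any of 16 matched cases of 19 entries (limma without a replicate block). At an unadjusted p under 0.05 there were 7 of 16, against 22.3% of all genes. They were Rfx5, Rfxank, Ctsl and Ifi30, lower with hBD-2, and H2-Eb2, Ctss and Irf1, higher. The groups did not overlap in 4 of 16, against 14.9% of all genes. The median log2 fold change of the 16 was -0.06. With the number as a block Ifi30 passed (limma adjusted p = 0.0486). H2-DMb1 had 6.21, 7.42, 6.39 and 7.48 with hBD-2, against 6.62, 7.05, 6.64 and 7.01 with PBS, and its highest numbers were 2 and 4 in both groups, as for H2-DMb2. H2-Ob, the partner of H2-Oa, was at 6.31 ± 0.125 with hBD-2 and 6.60 ± 0.333 with PBS, and H2-Eb2, a second I-E beta gene, at 4.51 ± 0.141 and 4.00 ± 0.270 in that order (SD, n = 4; limma adjusted p = 0.273 for H2-Ob and 0.0564 for H2-Eb2).

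Few markers of other cells had the order seen for B cells. The number of genes with 2 and 4 highest in both groups was 0 of 7 for plasma cells, 0 of 6 for germinal centre B cells, 0 of 10 for dendritic cells, 0 of 10 for monocytes and macrophages, 1 of 8 for neutrophils, 1 of 4 for NK cells, 0 of 5 for erythroid cells and platelets, and 0 of 11 for T cells. In the list of other class II pathway genes the number was 3 of 16, namely H2-DMb1, Nfya and Marchf8, so the order was not confined to B cell genes. Over all genes the share was 2.54%, so counts of 0 or 1 in lists this short do not set them apart from other genes. The mean log2 value of the dendritic cell list lay between 4.40 and 4.71 with hBD-2 and between 4.44 and 4.52 with PBS. For monocytes and macrophages it lay between 3.76 and 4.10 with hBD-2 and between 3.74 and 3.93 with PBS, and for plasma cells between 5.21 and 5.34 with hBD-2 and between 5.35 and 5.48 with PBS. The plasma cell mean does not stand for all 7 genes. Its brightest genes, Xbp1 and Irf4, were lower with hBD-2 (log2 fold change -0.68 and -0.52), as was Derl3 (-0.15). Sdc1, Tnfrsf17, Mzb1 and Jchain were higher (0.26, 0.14, 0.12 and 0.06). The defining markers Itgax (3.26 ± 0.0708 with hBD-2 and 3.47 ± 0.135 with PBS), Csf1r (3.73 ± 0.111 and 3.69 ± 0.134) and Jchain (2.87 ± 0.127 and 2.81 ± 0.148) were near or below the arrays' lower quartiles, but they do not stand for their lists. The mean over the 8 arrays was at or below 3.78 for 4 of 10 dendritic cell genes, 5 of 10 monocyte and macrophage genes and 2 of 7 plasma cell genes. Gene means reached 6.50, 5.28 and 8.88 in these 3 lists. Zbtb46, a dendritic cell factor, was at 5.29 ± 0.235 with hBD-2 and 5.15 ± 0.252 with PBS, and Siglech, of plasmacytoid dendritic cells, at 4.18 ± 0.183 with hBD-2 and 3.88 ± 0.198 with PBS. The dendritic cell list was split in direction. Itgax, Batf3, Xcr1 and Ccr9 were lower with hBD-2 (log2 fold change -0.21, -0.12, -0.07 and -0.02), and the rest of that list was higher. Aside from these, Sdc1 (CD138), Tnfrsf17 (BCMA), Flt3, Adgre1 (F4/80), S1pr2, Gcsam, S100a8, S100a9, Ncr1 and Klrb1c, further first entries of the lists, did not pass the test. Lyz2, a lysozyme of myeloid cells, had 3.80, 4.82, 4.98 and 5.19 with hBD-2, against 3.83, 4.48, 3.86 and 4.55 with PBS. In the same list Vcam1 and Adgre1 were lower with hBD-2 (log2 fold change -0.35 and -0.16), and the rest were higher, Cd14 among them (0.32). The groups did not overlap in 2 of these 10 genes, Cd14 and Vcam1, against 14.9% of all genes.

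Among these other lists 2 genes passed the test in the fit without a replicate block, while 4.46% of all genes did. They were 1 of 7 plasma cell genes and 1 of 5 erythroid and platelet genes. The count was 0 of 6 for germinal centre B cells, 0 of 10 for dendritic cells and 0 of 10 for monocytes and macrophages. It was 0 of 8 for neutrophils, 0 of 4 for NK cells and 0 of 11 for T cells. Calls this few do not set the lists apart from all genes. Xbp1, a factor of secretory cells including plasma cells, fell 1.61-fold (8.54 ± 0.280 with hBD-2 and 9.23 ± 0.140 with PBS, SD, n = 4; limma adjusted p = 0.0193). Klf1, an erythroid factor, rose 1.34-fold (5.32 ± 0.154 with hBD-2 and 4.90 ± 0.0986 with PBS; limma adjusted p = 0.0441). With the number as a block Klf1 did not pass (limma adjusted p = 0.0684), while Xbp1 did (0.0142). Itga2b, of the erythroid and platelet list, then passed as higher with hBD-2 (0.0451).

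**Figure D5:**
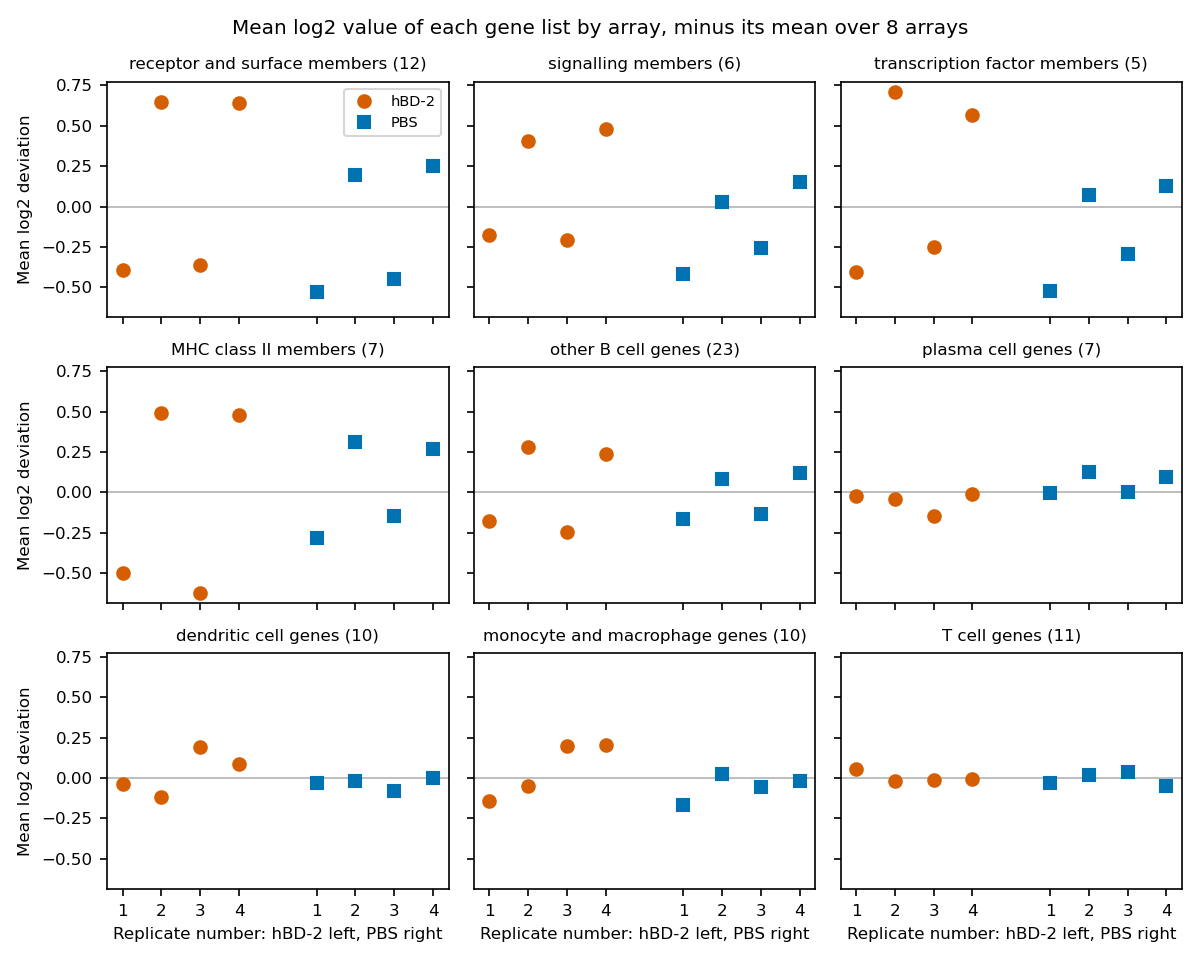
Mean log2 value of each gene list on each array minus its mean over the 8 arrays, for hBD-2 (circles, left) and PBS (squares, right), with the number of genes measured in brackets. The 4 roles of the B cell and class II genes and the further B cell genes stand higher on arrays 2 and 4 than on arrays 1 and 3 of the same group, while the T cell list spans 10.24 to 10.35 before centring.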

How the data were processed

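RNA of stimulated T cells was measured on 8 one-colour Affymetrix arrays. The authors deposited 1 table of log2 values for 22203 probe sets, and the submitters' processing notes name oligo and RMA. The sources used here give no version, setting or build. All 8 array columns were used. The platform annotation gave 1 symbol for 19572 probe sets, and 2631 are not listed there. For 55 genes with several probe sets the brightest was kept, which left 19505 genes. hBD-2 was compared with PBS by limma 3.58.1 in R 4.3.3 (lmFit, eBayes, no block), with adjustment over all genes. The fit was tested on simulated data. The number of arrays limits the precision.

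Members and lists were chosen with earlier results of these data known. Genes given in full are the 4 members of each role with the largest absolute fold change, and the others are summarised. Of the other lists, those past the threshold and the first 3 entries come under the rule. Members and further genes named beyond it were chosen after their values were seen, as was the comparison of class II chains. Alternatives were a replicate block, quantile normalization, cyclic loess, a filter on dim genes, the mean of probe sets, a variance trend and omission of arrays.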

Additional observations from a re-analysis of the deposited data

How the results depend on the processing

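No member passed the threshold under quantile normalization, cyclic loess, the filter on dim genes (20 members tested), the mean of probe sets, the omission of any 1 array, or the omission of hBD-2 replicates 3 and 4 together, where the lowest limma adjusted p among members ranged from 0.0819 to 0.286. With a variance trend 1 member passed, H2-Ab1 (0 higher, 1 lower, limma adjusted p = 0.0238). The replicate numbers were not taken to pair the arrays, because the labels do not tie them to mice and the weakest same-number correlation was near 0, but the values leave pairing undecided. Over all genes, deviations from the group means correlated at 0.0048 to 0.181 for arrays of the same number and at -0.154 to 0.0906 for others, and 3 of 4 hBD-2 and 2 of 4 PBS arrays correlated best with their own number. With the number as a replicate block 3 members passed, 2 higher (Ly86 and Blnk, limma adjusted p = 0.0115 and 0.0300) and 1 lower (H2-Ab1, 0.0414), and 857 genes in all, against 869 without it. Of the other lists, Cd83, Cd55 and Itga2b (higher, 0.0486, 0.0460 and 0.0451) and Ifi30 (lower, 0.0486) passed with the block, by limma adjusted p, and Klf1 did not (0.0684). The count of all genes past the threshold was 1541 (349 higher, 1192 lower) with dim genes left out, 2032 (474 higher, 1558 lower) with a variance trend and 128 (16 higher, 112 lower) without hBD-2 replicates 3 and 4. Leaving out 1 array gave 312 (without PBS replicate 1) to 1396 (without hBD-2 replicate 1) genes, 33 to 322 higher and 279 to 1074 lower. The count of members with the same 2 highest numbers was 18 under quantile normalization, cyclic loess and the mean of probe sets and 15 of 20 with dim genes left out, alternatives chosen for it after seeing the data. The log2 fold change of Fcrla was -0.041 under quantile normalization and -0.039 under cyclic loess, and without hBD-2 replicates 3 and 4 that of Fcer2a was -0.037 and that of H2-DMb2 0.16. Over the omission of 1 array, log2 fold changes that changed sign spanned -0.21 to 0.51 for Cd22, -0.23 to 0.0040 for Cd72, -0.070 to 0.30 for Cd79b, -0.17 to 0.34 for Ebf1, -0.040 to 0.28 for Fcer2a, -0.067 to 0.25 for Fcmr, -0.027 to 0.17 for Fcrla and -0.62 to 0.32 for H2-DMb2. The cause of these shifts was not tested. With 4 arrays a group, the number of arrays limits the precision, and values near the lower quartile of an array understate differences.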
